A study of Mus musculus with 18 samples.

Results

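The series holds 18 tumours, of which 8 carried the genotype p95HER2, and these 8 were ordered by their own Erbb2 level, given as CPM (the count of a gene per 1000000 counts of its library). Every gene with a mean of at least 1 CPM in the 8 tumours was then related to that order, 14245 genes in all besides Erbb2. The tumours were of PB2, a mouse breast cancer cell line, with the p95HER2 genotype, and the mice were on doxycycline diet DOX625. The 10 tumours of the EV genotype took no part in any value given here. No promoter, clone, sex or age is given in the labels, nor whether the tumours grew in different mice, and the p-values therefore cover the spread among these 8 samples, which may be technical in part. RNA was taken from whole tumours, so fewer cells of a type and less RNA per cell cannot be told apart.

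HER2, encoded by Erbb2, is a receptor tyrosine kinase that has no ligand of its own and signals in pairs with EGFR, HER3 or HER4 (encoded by Egfr, Erbb3 and Erbb4). The name p95HER2 covers fragments of HER2 that lack most of the extracellular part and retain the kinase. They signal to the ERK and PI3K cascades, and in breast tumours they are known for promoting invasion and for resistance to antibodies that bind the missing part. ERK signalling induces AP-1 and ETS family transcription factors, whose targets include matrix proteases, laminins and ligands of EGFR.

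Erbb2 (ENSMUSG00000062312, plus strand of chromosome 11, 98412470 to 98437716, mm10) was at 121 CPM in p95HER2 tumour 7, 127 in tumour 5, 136 in tumour 2, 137 in tumour 1, 149 in tumour 3, 178 in tumour 4, 184 in tumour 6 and 229 in tumour 8. The mean was 158 ± 36.8 CPM (SD, n = 8) and the highest tumour had 1.89 times the level of the lowest. Tumours 2 and 1 had nearly the same level, as did tumours 4 and 6, so their order within each pair rests on small differences. These values set the order and are not a finding. They rest on 4030 to 7894 reads per tumour in libraries of 32686558 to 34804640 counts, and the order was the same after TMM scaling. Whether the introduced p95HER2 sequence was human or mouse is not stated in the labels; if it was human, only some of its reads would count towards mouse Erbb2.

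The libraries were alike in depth, and differed in the share of mitochondrial counts and in cell type marker levels. Mitochondrial genes took 0.930% to 1.69% of the counts, the 10 most abundant genes 3.98% to 4.52%, and 22773 to 23590 genes had at least 1 count. Tumour 4 had the lowest skeletal muscle and T cell marker levels and tumour 6 the highest. Tumour 8 stood apart in heat-shock and immediate-early genes, described further on. Tumour 1 carries a tag number far below the run of numbers of the other 7, and the labels give no reason.

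Along the Erbb2 order 3 genes rose and none fell (0.0211% and 0% of the 14245 genes tested, edgeR quasi-likelihood F-test, Benjamini-Hochberg adjusted p under 0.05). They were Tnnt2, which encodes the heart form of troponin T, Fam167a, and Cpe, which encodes carboxypeptidase E, an enzyme of prohormone processing. Before adjustment, 722 genes were higher with rising Erbb2 (5.07%) and 406 were lower (2.85%) at p under 0.05, where 356 in each direction would arise if no gene were related to the order. With library totals in place of TMM scaling these numbers were 616 and 567. The coefficient, the fitted log2 difference between the highest and the lowest position, had a median of 0.004 over all genes tested and was positive for 50.8% of them. It exceeded 1 for 307 genes and was below -1 for 10. In a fit with tumours left out, the ends are those of the tumours that remain. Without tumours 6 and 8 the coefficient spans 121 to 178 CPM of Erbb2, where it spans 121 to 229 CPM with all 8. Part of a fall in the coefficient can follow from this narrower span. By rank alone (Spearman, exact permutation over 40320 pairings), no gene passed after adjustment (lowest adjusted p 0.435). The smallest p that 8 tumours allow in this test is 4.96e-05. A single gene in perfect order could therefore not pass among 14245 genes, and the lack of calls by rank is no result. Before adjustment 411 genes were higher by rank (2.89%) and 599 were lower (4.20%).

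Tnnt2 (chromosome 1, 135836354 to 135852260) was at 10.1, 14.97, 16.1, 16.7, 21.0, 25.6, 36.4 and 40.4 CPM from the lowest to the highest Erbb2 tumour. Each tumour in the order was above the one before it. The coefficient was 1.92 (SE 0.15, edgeR adjusted p = 0.00126). Pearson's r of its log2 level with log2 Erbb2 was 0.96 (exact permutation p = 2.5e-05, n = 8), Spearman's rho was 1 (exact permutation p = 4.96e-05, the smallest that the ranks of 8 tumours allow), and r was 0.93 without tumours 6 and 8, the pair farthest from the median Erbb2 level. Tnnt2 is a striated muscle gene, and all 15 skeletal muscle markers also had positive coefficients (median 1.11, none called). The median of these markers was 0.53 without tumour 6 and 0.57 without tumour 7, and 0.19 with 13 of 15 positive without tumours 6 and 8. With the skeletal muscle level as a covariate the coefficient of Tnnt2 was 1.87 (edgeR adjusted p = 0.000872). Tumour 4, which had the lowest muscle level of the 8, had the third highest Tnnt2. The part of muscle cells in the relation of Tnnt2 to Erbb2 was not tested.

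Fam167a (chromosome 14, 63436394 to 63465498) was at 9.90, 14.05, 13.9, 13.2, 15.1, 24.3, 24.8 and 30.4 CPM in the same order. The 5 tumours with less Erbb2 lay below the other 3 without overlap. The coefficient was 1.53 (SE 0.19, edgeR adjusted p = 0.0492), r was 0.97 (exact permutation p = 0.000248, n = 8) and r without tumours 6 and 8 was 0.94. Cpe (chromosome 8, 64592542 to 64693054) was at 18.4, 20.6, 23.1, 21.1, 26.9, 35.5, 38.4 and 36.5 CPM. It too was highest in tumours 4, 6 and 8, with a coefficient of 1.17 (SE 0.15, edgeR adjusted p = 0.0492). Its r was 0.93, or 0.99 without tumours 6 and 8. Tnnt2, Fam167a and Cpe were called in these same 8 tumours, so their r and rho values are no independent support. The calls of Fam167a and Cpe lay at the threshold: each was kept in 2 of the 8 fits that left out 1 tumour (those without tumour 1 and without tumour 2), with adjusted p reaching 0.446 for Fam167a and 0.292 for Cpe. Tnnt2 was kept in 7 of 8, and had an adjusted p of 0.0506 without tumour 6.

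**Figure D1:**
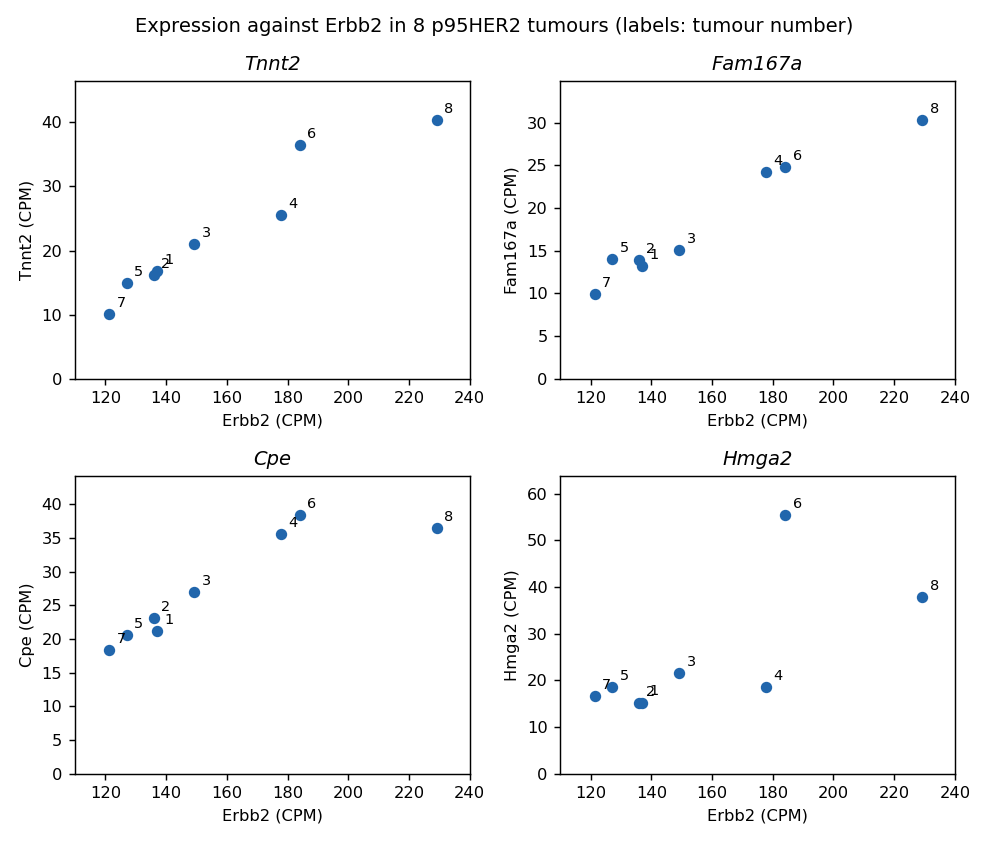
Level of 4 genes (vertical axis, CPM) against Erbb2 (horizontal axis, CPM) in the 8 p95HER2 tumours, 1 numbered point per tumour. Tnnt2, Fam167a and Cpe are each higher in tumours 3, 4, 6 and 8 than in any of the other 4, while Hmga2 is high in tumours 6 and 8 and between 15.1 and 21.5 CPM in the other 6.

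When log2 Erbb2 CPM replaced the position in the order, 34 genes rose (0.239% of 14245) and 0 fell (edgeR, adjusted p under 0.05; 798 higher, 5.60%, and 509 lower, 3.57%, before adjustment). The 3 genes called along the order were among them. The coefficient is then the log2 change per doubling of Erbb2. This count depends on single tumours: it was 0 without tumour 1, 2 or 7, 1 without tumour 5, 2 without tumour 3 or 8, 29 without tumour 6 and 98 without tumour 4. Of the 34 genes, 25 were highest in tumour 8, 8 in tumour 6 and 1 in tumour 4. All 34 had a positive r without tumours 6 and 8, with a median of 0.84, against -0.04 over all genes tested; the 34 were called with all 8 tumours, so these r values are no independent support.

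The known roles of the 34 genes are varied, and no theme was tested for them. Lamb3, the integrin subunit Itga3 and the cytoskeletal linker plectin (Plec) belong to laminin adhesion. Klk6, Klk8 and Tmprss11e encode secreted or membrane-bound serine proteases. Jag1 is a ligand of Notch receptors, Wnt7b a Wnt ligand, Areg (amphiregulin) a ligand of EGFR and Il23a a subunit of interleukin 23. Krt7 is a keratin of simple epithelia, Aqp8 a water channel, Nt5e the surface enzyme CD73, and Dusp5 a phosphatase that acts on ERK.

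The 34 genes differed in level and in how evenly they changed. Jag1 was at 16.4, 17.3, 16.1, 16.7, 22.2, 22.9, 37.7 and 43.5 CPM from the lowest to the highest Erbb2 tumour (1.72 per doubling, SE 0.21, edgeR adjusted p = 0.0354). S100a6, a calcium-binding protein, was at 68.3, 76.3, 81.7, 69.8, 105, 121, 172 and 162 CPM (1.62 per doubling, SE 0.22, adjusted p = 0.0415). Both were higher in tumours 3, 4, 6 and 8 than in the other 4 tumours without overlap. Krt7 was at 43.1 to 55.5 CPM in the 5 tumours of lowest Erbb2, then at 83.4, 133 and 130 CPM in tumours 4, 6 and 8 (2.06 per doubling, SE 0.27, adjusted p = 0.0415). Tubb2a, a beta-tubulin, had one of the smallest coefficients of the 34, 0.76 per doubling (SE 0.11), from 42.6 CPM in tumour 7 to 72.8 CPM in tumour 8. Dusp5 and Myh8, a myosin heavy chain of developing muscle, had the weakest relation in the 6 tumours that remain without 6 and 8, with r of 0.41 and 0.29. Myh8 was at 1.04 to 3.86 CPM in 7 tumours and 12.1 CPM in tumour 8.

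Klk6, Klk8 and Areg, which rose with log2 Erbb2 CPM, have a window of 250 bases before the start of transcription in RefSeq (GRCm38.p6). ETS factors, which act downstream of ERK, bind the letters AGGAAG. The 3 windows shown are among those that hold these letters on either strand. The windows of Tnnt2, Jag1, Dclk1, S100a6 and Ehd2, genes that also rose, do not hold them. The capitals mark AGGAAG as it reads on the opposite strand, CTTCCT, and all sequences run 5′ to 3′ on the plus strand. Klk6 is at chr7:43824294-43824543, Klk8 at chr7:43797327-43797576 and Areg at chr5:91139349-91139598.
Klk6: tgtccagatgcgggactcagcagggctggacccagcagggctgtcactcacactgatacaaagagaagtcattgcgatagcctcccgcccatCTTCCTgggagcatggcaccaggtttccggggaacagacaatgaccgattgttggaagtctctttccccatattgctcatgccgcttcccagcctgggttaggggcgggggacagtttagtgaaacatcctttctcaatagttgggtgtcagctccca
Klk8: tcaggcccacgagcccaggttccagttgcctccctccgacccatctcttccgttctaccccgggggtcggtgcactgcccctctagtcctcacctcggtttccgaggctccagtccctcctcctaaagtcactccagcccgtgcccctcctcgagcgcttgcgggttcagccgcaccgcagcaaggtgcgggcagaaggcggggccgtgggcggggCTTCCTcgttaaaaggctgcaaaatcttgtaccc
Areg: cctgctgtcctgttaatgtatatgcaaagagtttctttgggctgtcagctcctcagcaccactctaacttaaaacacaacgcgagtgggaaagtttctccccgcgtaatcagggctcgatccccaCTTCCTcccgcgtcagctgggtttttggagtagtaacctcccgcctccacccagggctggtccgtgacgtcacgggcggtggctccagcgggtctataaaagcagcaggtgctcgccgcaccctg
The first base of the marked letters lay 158 bases before the start in Klk6, 34 in Klk8 and 125 in Areg. Of the 34 genes, 18 had a RefSeq window within 500 bases of the start in the GENCODE annotation, and 8 of these windows (44.4%) held AGGAAG on either strand, against 29.5% of all 32851 windows of the same length. The AP-1 letters TGANTCA, searched on both strands, were in 0 of the 18 windows and in 6.75% of all windows. The letters TATAAA, also on both strands, were in 4 of the 18 (22.2%) and in 12.4% of all windows. None of the 3 motifs contains another. A match describes the sequence and shows no binding.

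The proteases had low levels that were several times higher at the upper end. Klk6 was at 1.87, 1.81, 3.49, 2.19, 3.88, 4.02, 8.43 and 9.03 CPM along the order, with a coefficient of 2.42 (SE 0.36, edgeR adjusted p = 0.0586) and 2.68 per doubling of Erbb2 (adjusted p = 0.0420). Klk8 was at 1.35, 1.55, 1.32, 1.81, 2.72, 2.73, 5.76 and 5.37 CPM, with a coefficient of 2.32 (SE 0.34, adjusted p = 0.0586). In both genes tumours 6 and 8 were above all others, and tumours 3 and 4 came next. A list of kallikreins and membrane serine proteases was chosen after the data were seen, with 7 genes tested. Of these, 4 were higher at an unadjusted p under 0.05 (Klk6, Klk8, Prss22 and Tmprss11e), where 5.07% of all genes were. The other 3, St14, Prss8 and Tmprss2, had coefficients from -0.16 to -0.09.

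Hmga2 and Lama3 were given beforehand as markers of the p95HER2 tumours. Hmga2, a chromatin protein of embryonic tissue, was at 16.7, 18.5, 15.1, 15.2, 21.5, 18.5, 55.4 and 37.8 CPM along the Erbb2 order. Tumours 6 and 8 stood above the other 6, which lay between 15.1 and 21.5 CPM. The coefficient was 1.59 (SE 0.45, edgeR adjusted p = 0.396) and r was 0.75 (exact permutation p = 0.0324, or 0.0549 adjusted over the 105 named genes, n = 8). Without tumours 6 and 8 r was 0.39, so the relation rests on those samples. Its coefficient without tumour 6 was 0.95. Lama3, the alpha chain of an epithelial laminin, was at 16.3, 19.0, 19.5, 15.7, 21.7, 23.7, 57.1 and 51.9 CPM, with a coefficient of 1.83 (SE 0.38, edgeR adjusted p = 0.228). It had the same step at tumours 6 and 8. Its r was 0.80 without them against 0.87 with all 8 (exact permutation p = 0.00263), but the other 6 tumours spanned only 15.7 to 23.7 CPM. Without tumours 6 and 8 the coefficient was 0.43 for Lama3 and 0.22 for Hmga2. Neither gene passed the test.

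A list of 16 strong rises was chosen from earlier results of these same tumours, so their direction is not independent evidence. None was called along the order, and 3 rose with log2 Erbb2 CPM (Klk6, Dynap and Lamb3). Before adjustment 13 of 16 were higher at p under 0.05, where 5.07% of all genes were, and the median coefficient was 1.54. Of the 16, 10 were highest in tumour 6 and 5 in tumour 8, whereas 30.2% of all genes tested were highest in 1 of these tumours. Dynap was at 3.76, 4.37, 6.15, 4.14, 5.43, 7.78, 16.3 and 14.9 CPM (coefficient 2.14, SE 0.36, edgeR adjusted p = 0.0988). Prl2c3, a prolactin family gene whose paralogs make its counts uncertain, ranged from 1.81 to 8.19 CPM in 7 tumours and was 20.7 CPM in tumour 6. Nrg2 was the 1 member with a negative coefficient, at 33.8 CPM in tumour 7 and 24.1 CPM in tumour 8 (-0.31, SE 0.14, edgeR adjusted p = 0.639). Without tumours 6 and 8 the median coefficient of the list was 0.26, with 12 of 16 positive.

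**Figure D2:**
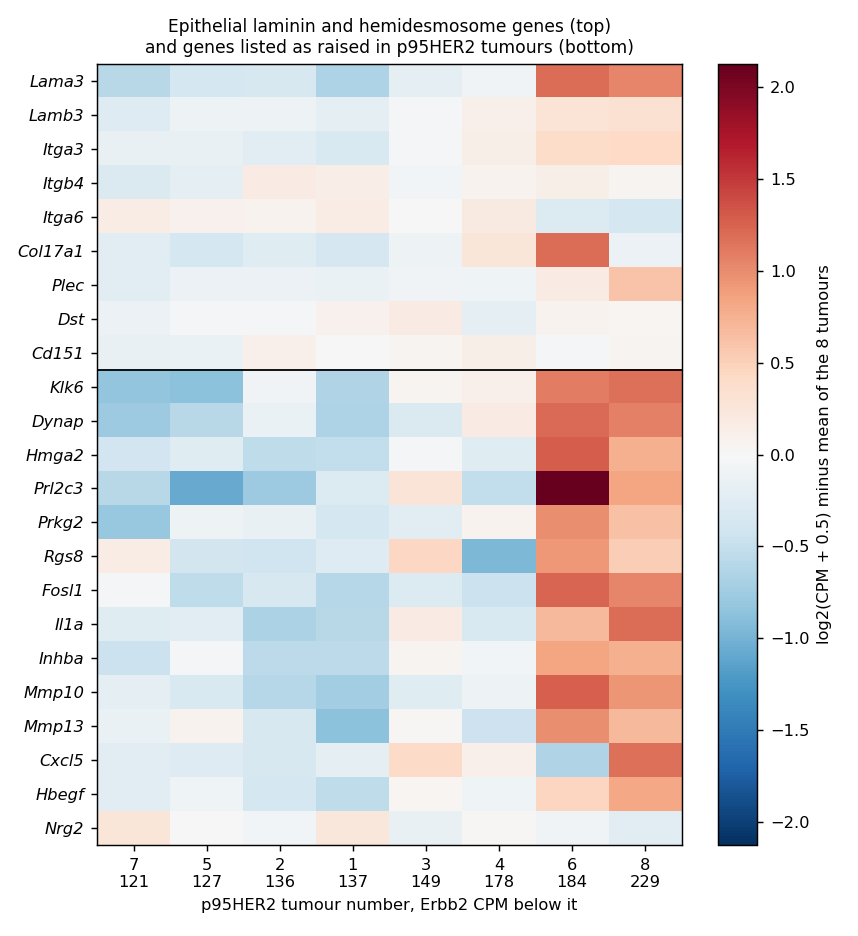
Log2(CPM + 0.5) minus the mean of the 8 tumours (colour) for 9 of the 10 epithelial laminin and hemidesmosome genes (top) and for 14 of the 16 genes on the list of strong rises (bottom; Lama3 and Lamb3 stand in the top block), with tumours from left to right by rising Erbb2. Most rows of the bottom block are red in tumours 6 and 8, Lamb3 changes gradually, and Itga6 and Nrg2 run the other way.

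Epithelial laminin, which holds the chains encoded by Lama3 and Lamb3, and the hemidesmosome anchor epithelial cells to the basement membrane. All 10 genes of this list were tested and none was called along the order. Lamb3, Itga3 and Plec rose with log2 Erbb2 CPM. Of the 10, 9 had positive coefficients (median 0.64), and 9 of 10 were positive without tumour 6 (median 0.47) and without tumour 8 (median 0.43). Lamb3, the beta chain, was at 154, 173, 172, 162, 182, 200, 227 and 233 CPM (coefficient 0.61, SE 0.10, edgeR adjusted p = 0.0988; 0.69 per doubling of Erbb2, adjusted p = 0.0415). Its r was 0.95, and 0.91 without tumours 6 and 8. Itga6, the integrin subunit that pairs with Itgb4 in hemidesmosomes, had the opposite sign, at 1140 CPM in tumour 7, 835 in tumour 6 and 781 in tumour 8 (coefficient -0.42, SE 0.15, edgeR adjusted p = 0.488).

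None of the 3 partner receptors of HER2 was called against its level. Egfr ranged from 64.1 CPM in tumour 6 to 92.9 CPM in tumour 2, and its coefficient of -0.22 (SE 0.14, edgeR adjusted p = 0.749) turned to 0.02 without tumours 6 and 8. Erbb3 ranged from 48.0 to 73.3 CPM (coefficient -0.17, SE 0.20, adjusted p = 0.879; 0.13 without tumours 6 and 8) and Erbb4 from 1.41 to 2.57 CPM. Of 7 HER family ligands tested, Areg alone rose with log2 Erbb2 CPM, and none was called along the order. Areg was at 8.10, 10.3, 10.2, 8.69, 15.2, 11.9, 19.4 and 24.0 CPM (1.63 per doubling, SE 0.27, edgeR adjusted p = 0.0445; coefficient along the order 1.46, adjusted p = 0.0988). Tumours 3, 4, 6 and 8 were above the other 4 tumours. Hbegf, a ligand of EGFR and HER4, was between 17.9 and 27.0 CPM in 6 tumours and at 36.3 and 46.6 CPM in tumours 6 and 8 (coefficient 1.01, SE 0.27, adjusted p = 0.341). Tgfa, another EGFR ligand, ranged from 69.0 to 89.1 CPM with a coefficient of -0.14 (SE 0.12, adjusted p = 0.829), and Nrg1, a ligand of HER3 and HER4, from 1.37 to 3.39 CPM; both signs turned without tumours 6 and 8.

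No gene within 1000 kb of Erbb2 on chromosome 11 was called along the order. Farther off on that chromosome, Itga3, Trim16 and Myh8 rose with log2 Erbb2 CPM. Of 22 named neighbours tested, 11 had positive and 11 negative coefficients (median -0.003). Within 1000 kb on either side, 47 genes were tested, 26 were positive and the median was 0.02. Csf3, the gene of the neutrophil growth factor G-CSF, had the highest coefficient in the window (1.63, SE 0.47, edgeR adjusted p = 0.357). It was at 1.99 to 4.41 CPM in 7 tumours and 9.64 CPM in tumour 8. By chromosome, the median coefficient lay between -0.04 (chromosome 16) and 0.03 (chromosome 7).

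Downstream of the receptor, ERK output genes include feedback phosphatases and ETS factors. Among 20 ERK output genes, 3 were higher and 1 was lower at an unadjusted p under 0.05, where 5.07% and 2.85% of all genes were. The median coefficient was 0.07, or -0.01 without tumour 8, and Dusp5 rose with log2 Erbb2 CPM. Dusp5 was at 8.32 to 11.4 CPM in 6 tumours, 17.6 in tumour 6 and 28.3 in tumour 8. Its coefficient along the order was 1.37 (SE 0.35, edgeR adjusted p = 0.307), and 0.67 without tumour 8. The ETS genes Etv4 and Etv5 had coefficients of 0.06 and -0.36 (SE 0.11 and 0.23). Ccnd1, the G1 cyclin D1, ranged from 1809 to 2496 CPM with a coefficient of -0.32 (SE 0.09, edgeR adjusted p = 0.371). AP-1 factors bind many promoters of proteases and cytokines. All 9 AP-1 genes tested had positive coefficients (median 0.76), and none was called. Without tumour 8 the signs were positive in 5 of 9 (median 0.14), and without tumours 6 and 8 in 3 of 9 (median -0.19).

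**Figure D3:**
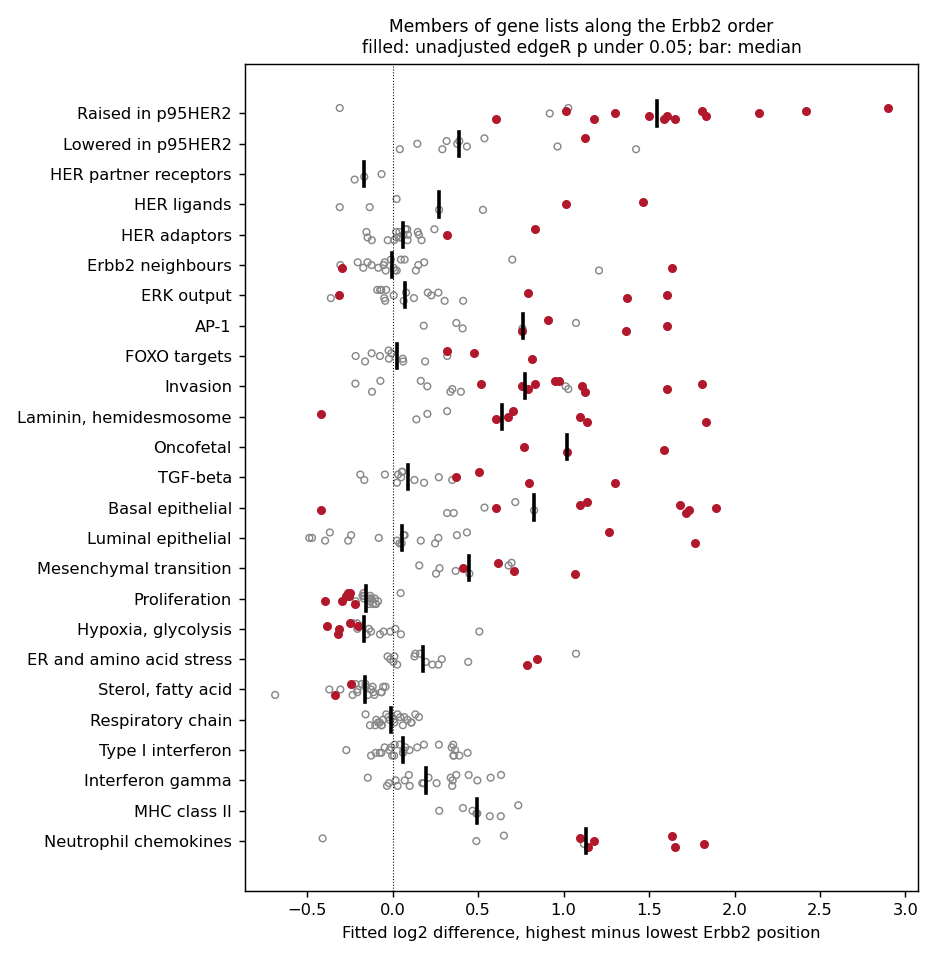
Fitted log2 difference between the highest and the lowest Erbb2 position (horizontal axis) for each tested member of 25 gene lists (rows); filled points have an unadjusted edgeR p under 0.05, black bars are list medians, and the dotted line is 0. The list of strong rises (median 1.54) and the neutrophil chemokines (1.13) lie farthest right, and the HER partner receptors (-0.17), proliferation (-0.16), hypoxia (-0.17) and sterol genes (-0.16) lie slightly left.

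Of 20 genes of invasion and matrix remodelling 17 had positive coefficients, as had 12 of 13 genes of basal epithelial cells, and none of either list was called along the order. Of the 20 invasion genes, 10 were higher and 0 lower at an unadjusted p under 0.05, where 5.07% and 2.85% of all genes were. Their median coefficient was 0.77, 0.41 without tumour 6, and 0.18 with 15 of 20 positive without tumours 6 and 8. Cd44, a hyaluronan receptor, was at 192, 215, 211, 203, 224, 234, 275 and 272 CPM (coefficient 0.52, SE 0.10, edgeR adjusted p = 0.141). Mmp10 was at 1.40 to 2.44 CPM in 6 tumours and at 7.16 and 5.61 CPM in tumours 6 and 8. Of 13 basal genes, 7 were higher and 1 (Itga6) was lower before adjustment, with a median of 0.83, 0.47 without tumour 6 and 0.30 without tumours 6 and 8. In this list the laminin chain Lamb3 rose with log2 Erbb2 CPM. Krt14, a basal keratin, was at 22.9 to 32.8 CPM in the 5 tumours of lowest Erbb2 and at 67.8, 69.2 and 80.3 CPM in tumours 4, 6 and 8 (coefficient 1.74, SE 0.41, edgeR adjusted p = 0.301). The epithelial markers Epcam, Cdh1, Krt8 and Krt18 had coefficients of 0.04, 0.02, 0.27 and 0.38, none called, and Epcam stayed between 625 and 696 CPM.

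Differences on the lower side were small, and none passed the threshold after adjustment. Slc1a4, a transporter of neutral amino acids, had the smallest p among genes that were lower with rising Erbb2, at 156, 140, 142, 136, 126, 116, 112 and 114 CPM (coefficient -0.45, SE 0.08, edgeR adjusted p = 0.110). Its r was -0.91, and -0.96 without tumours 6 and 8. Egln3, an oxygen-sensing prolyl hydroxylase, was at 399, 367, 395, 369, 342, 328, 332 and 288 CPM (-0.38, SE 0.09, adjusted p = 0.241). Lonp1, a protease of mitochondria, had one of the lowest rank correlations (rho -0.98) over a narrow range of 124 to 140 CPM. Of 24 proliferation genes 23 had negative coefficients (median -0.16), 7 of them at an unadjusted p under 0.05, where 2.85% of all genes were. Top2a, a topoisomerase of dividing cells, was at 620 CPM in tumour 7 and 484 CPM in tumour 8 (-0.30, SE 0.09, edgeR adjusted p = 0.422). Of 18 hypoxia and glycolysis genes 15 were negative (median -0.17), and of 21 sterol and fatty acid genes 21 were negative (median -0.16). Without tumours 6 and 8 the 3 medians were -0.20, -0.19 and -0.39. The sterol result rests on tumour 7, the tumour of lowest Erbb2: without it the median was 0.04 with 12 of 21 genes positive, and it was -0.09 without tumour 5 and -0.28 without tumour 8. Without tumour 7 the medians of the proliferation and hypoxia genes were -0.11 and -0.17.

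Markers of other cell types moved with the order in part. Marker levels are the mean of log2(CPM + 0.5) over the measured genes of a list. The skeletal muscle level (15 of 15 markers measured) was 5.49, 6.47, 6.78, 6.40, 7.23, 4.50, 7.62 and 6.86 along the order. It was highest in tumour 6 and lowest in tumour 4, which are next to each other by Erbb2. The T cell level (14 of 20 markers) was 0.41 in tumour 4 and 2.03 in tumour 6, and the macrophage level (20 of 20) 3.95 and 4.88 in the same tumours. The fibroblast level (17 of 17) ranged from 5.30 in tumour 7 to 6.26 in tumour 6, and 15 of its 17 genes had positive coefficients (median 0.62; 0.32 without tumour 6 and 0.37 without tumour 7). The endothelial level (16 of 16) ranged from 3.45 in tumour 7 to 4.05 in tumour 3, and 15 of its 16 genes had positive coefficients (median 0.51; 0.30 without tumour 7). Before adjustment 5 of the 16 were higher and 1 (Flt1) was lower, where 5.07% and 2.85% of all genes were. Without tumour 7 it was 2 higher, where 593 of all 14258 genes were. Without tumour 4 it was 11 higher, where 1030 of all 14259 genes were. The neutrophil level rests on 4 of 10 markers (S100a8, S100a9, Csf3r and Clec4d) and followed the order more closely than the other 11 cell type levels (rho 0.93). It was 1.80, 2.03, 1.87, 1.94, 2.31, 2.34, 2.37 and 2.39 along the order, so that tumours 3, 4, 6 and 8 lay above the other 4. All 4 genes had positive coefficients (median 0.43, or 0.25 without tumour 6). S100a9 was near the limit of the filter, at 0.603 to 4.08 CPM and highest in tumour 4, and S100a8 was at 11.2 to 19.8 CPM. The neutrophil markers left out had a mean below 1 CPM. No marker gene of any cell type was called. With the fibroblast level as a covariate, 1 gene was called (Tnnt2) and the adjusted p of Fam167a and Cpe was 0.410 and 0.442. With the immune level as a covariate 34 genes were higher and 8 lower, and with the muscle level 18 were higher. The part of these cell types in the relations to Erbb2 was not tested.

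**Figure D4:**
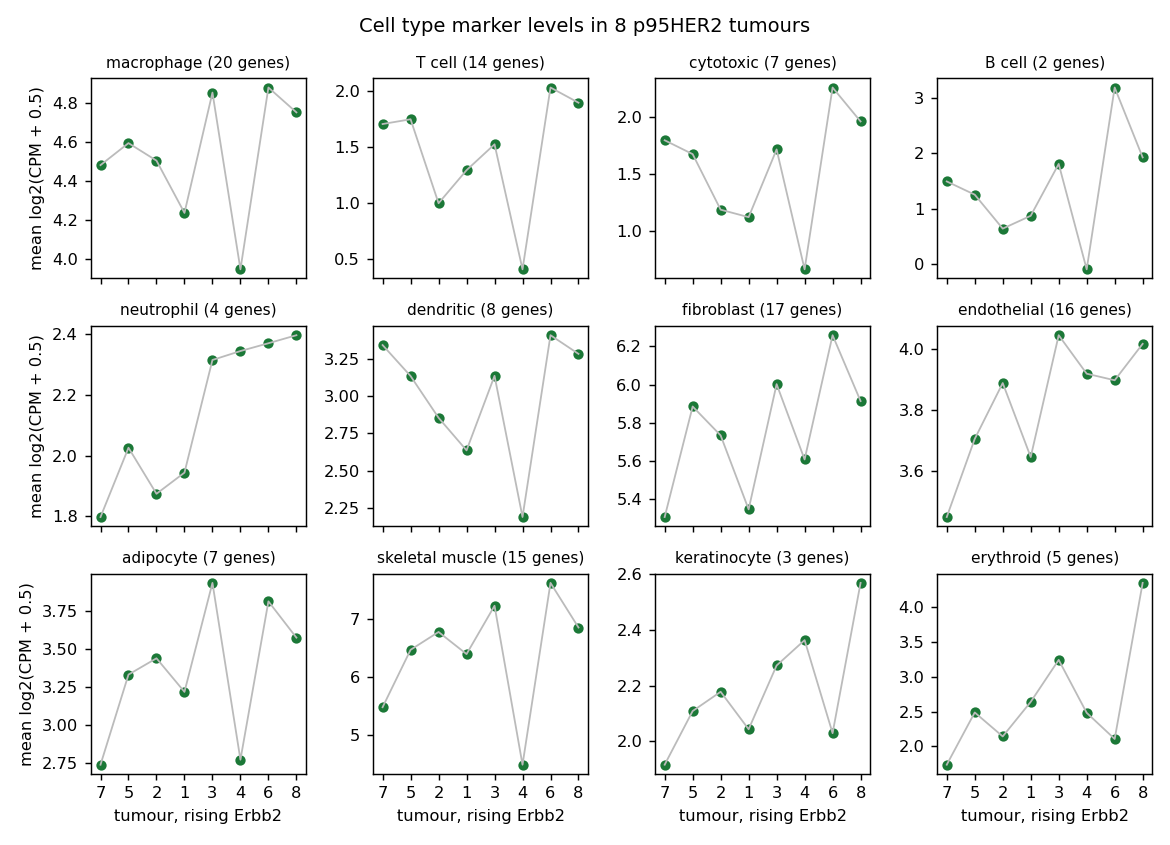
Level of 12 cell type marker lists (vertical axes, mean log2(CPM + 0.5), each panel on its own scale) in the 8 p95HER2 tumours, from left to right by rising Erbb2. Tumour 4 is lowest and tumour 6 highest in the macrophage, T cell, cytotoxic, B cell, dendritic and skeletal muscle panels, and tumour 8 stands above the others in the erythroid panel.

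Tumour 8, the tumour of highest Erbb2, differed from the rest in heat-shock and immediate-early genes, lists chosen after the data were seen. All 10 heat-shock genes tested and all 12 immediate-early genes tested were highest in tumour 8, as were 1818 of all 14245 genes tested. The size of the gap varied: Hspa8 was at 1.02 times and Ier3 at 1.10 times the level of the next tumour. Hspa1b, an inducible chaperone, was at 55.3, 40.8, 110, 74.1, 184, 60.7, 125 and 566 CPM along the order. Hspb1, a small heat-shock protein, was at 125 to 380 CPM in 7 tumours and 926 CPM in tumour 8, and the immediate-early gene Fos at 33.5 to 54.8 CPM and 117 CPM. The median coefficient of the heat-shock genes was 0.87 with all tumours and 0.10 without tumour 8, and that of the immediate-early genes 0.78 and 0.14. Hsp90aa1, a chaperone of which HER2 is a known client, was at 576 to 707 CPM in 7 tumours and at 1355 CPM in tumour 8, and its coefficient of 0.83 became 0.08 without that tumour. The erythroid genes were all highest in tumour 8 as well, with a median coefficient of 2.09, or 0.58 without it, and so were Cxcl2, Cxcl5, Cxcl1 and Il6 among the neutrophil chemokines (list median 1.13, or 0.23 without it). The part of these genes in the relations above was not tested, and the 3 genes called along the order kept coefficients of 1.63 (Tnnt2), 1.25 (Fam167a) and 1.10 (Cpe) without tumour 8, with adjusted p of 0.0424, 0.446 and 0.182.

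**Figure D5:**
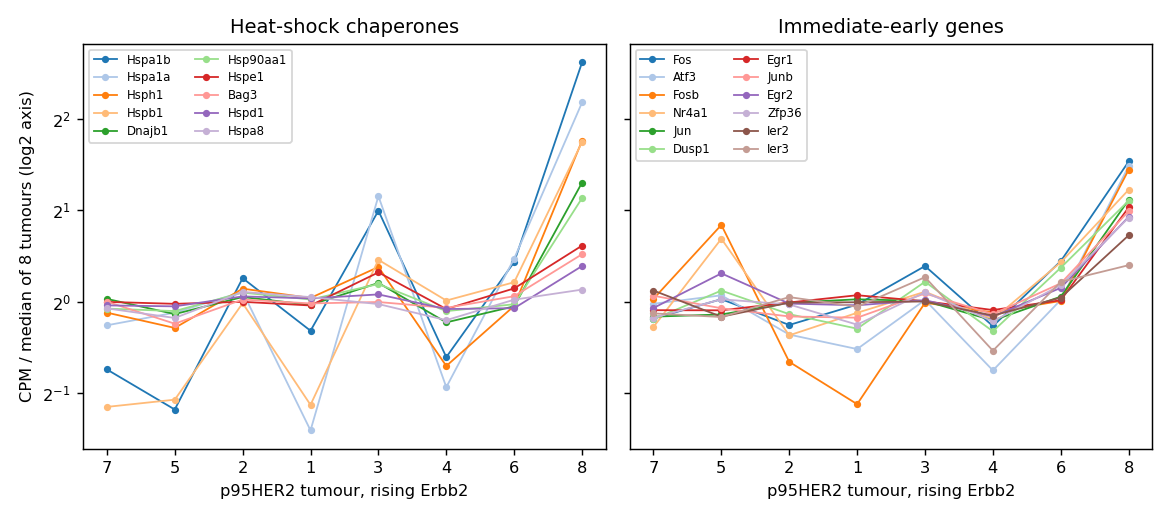
CPM divided by the median of the 8 tumours (log2 axis) for 10 heat-shock genes (left) and 12 immediate-early genes (right), with tumours from left to right by rising Erbb2 and 1 line per gene. All 22 lines are highest in tumour 8.

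No gene of the respiratory chain or of the interferon response was called. Of 24 respiratory chain genes, 11 had positive coefficients (median -0.01; between -0.06 and 0.05 with any 1 tumour left out), and none reached an unadjusted p under 0.05. None of 26 type I interferon genes (median 0.06), 20 interferon gamma genes (median 0.19) and 8 MHC class II genes (median 0.49) reached that p either. The signs of these 3 medians rest on tumour 6: without it they were -0.09, -0.17 and -0.25, and without tumours 6 and 8 they were -0.33, -0.82 and -1.17, with 3 of 26, 0 of 20 and 0 of 8 genes positive. Without tumour 8 the type I interferon median was -0.04 (0.02 to 0.03 without tumour 1, 2 or 3) and the interferon gamma median 0.05. Without tumour 4, 5 or 7 the 3 medians were higher than with all 8, at 0.15 to 0.22, 0.37 to 0.40 and 0.68 to 0.81. Class II genes spanned a wide range, as with H2-DMb1 at 17.2 CPM in tumour 4 and 76.1 CPM in tumour 6. The 11 tested genes of a list of strong falls, also chosen from earlier results of these tumours, all had positive coefficients (median 0.39), with Krt79 the 1 member at an unadjusted p under 0.05. This direction rests on tumour 8: without it 6 of 11 were positive (median 0.07), and without tumours 6 and 8 it was 5 of 10 (median 0.08). Without tumour 5 the median was 0.64.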

How the data were processed

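RNA was measured by sequencing in whole tumours, and the 8 p95HER2 libraries are used here; replicates were numbered in accession order, which names a sample only. The values the authors deposited are raw counts of reads for each Ensembl gene, not normalized, with 1 column per tumour. The submitters' processing notes name genome build mm10, HTSeq 0.6.1 and STAR 2.5. Neither the annotation release nor the strand setting of the counting is given here, which leaves counts of overlapping genes and of near-identical paralogs uncertain. Per the labels' protocols, mRNA was enriched and made into directional libraries.

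Of 54532 genes, 25469 had no count in these 8 libraries. Symbols were found for 54409 identifiers, and coordinates for 54495 came from a GENCODE annotation of the same build. Genes with a mean of at least 1 CPM were tested. At that limit, Gm43692 (1.00019 CPM) was kept and Gm11491 (0.999611 CPM) was not. Erbb2 took part in TMM scaling and was left out of the genes tested.

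The main test was the robust quasi-likelihood F-test of edgeR 4.0.16 in R 4.3.3 on the counts, two-sided. Its covariate was the position in the Erbb2 order, scaled from 0 for the lowest tumour to 1 for the highest. With tumours left out, the position was scaled again from 0 to 1 over those that remained. Benjamini-Hochberg adjustment ran over all 14245 genes, with calls at an adjusted p under 0.05. All adjusted p-values are from edgeR unless another tool is named. Standard errors are the coefficient divided by the square root of F. Single genes were described by Pearson's r of log2(CPM + 0.5) with log2 Erbb2 CPM and by Spearman's rho. Two-sided exact permutation tests, with p-values given unadjusted unless stated, were run for 105 named genes. Some of these were chosen by their p or rho in the same tumours, so their values are no independent support. Lists were described by counts and medians without a test. Tested on simulated counts over 14245 genes, the test called 8 of 50 genes with a log2 difference of 0.5 between the ends, 31 of 50 with 1, 36 of 50 with 1.5 and 44 of 50 with 2, and it called 9 of 14045 unchanged genes.

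The genes to be named were the 3 markers, the members of the HER receptor, HER ligand and strong-rise lists, the 10 genes of smallest p in each direction with a mean of at least 5 CPM, the 3 of highest and 3 of lowest rho, and the 2 members of smallest p of each of the other lists. Other genes named here were chosen after their values were seen. The tumours, the markers and the 37 lists (25 pathway, 12 cell type) were chosen with earlier results of these data known. Alternatives were RLE scaling, library totals, other filters, DESeq2 1.42.0, limma 3.58.1 voom, Spearman rho, log2 Erbb2 CPM, marker levels as covariates, and tumours left out. Promoter windows and their letters are from RefSeq (GRCm38.p6). Some genes that the rule names are not reported here.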

Additional observations from a re-analysis of the deposited data

Results flagged for a closer look

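Of 118 items checked in the 8 tumours, 16, all of them genes, had 1 tumour far from the other 7. Its gap to the next tumour, as a share of the whole range, was above Dixon's 95% critical value for 8 samples. With normally distributed values, chance sets about 1 group in 20 apart in this way. The flagged values are CPM without a log, for which that rate need not hold, and all 16 lay on the high side. The genes were also chosen partly for their high values. In 13 of the 16 the distant tumour was tumour 8, the one of highest Erbb2, and in 3 it was tumour 6.

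In tumour 8, Hsp90aa1 was at 1355 CPM, where the next tumour had 707, and Klf6, a transcription factor, was at 212 CPM against 113. Fos was at 117 CPM against 54.8, Ppp1r15a, a stress-induced phosphatase subunit, at 39.2 against 23.6, and Dusp5 at 28.3 against 17.6. Among secreted factors, Cxcl5 was at 10.2 CPM against 5.75, Cxcl2 at 4.47 against 1.75, and Csf3 at 9.64 against 4.41. The matrix protease Adamts1 was at 73.9 CPM against 47.4, the thioredoxin inhibitor Txnip at 189 against 147, and the keratin Krt79 at 8.25 against 4.96. The globin genes Hbb-bs and Hba-a2 were at 104 and 9.44 CPM against 41.0 and 4.76.

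In tumour 6, Prl2c3 was at 20.7 CPM, where the next tumour had 8.19. The class II gene H2-DMb1 was at 76.1 CPM against 42.5, and Jchain, a gene of antibody-secreting cells, at 5.02 against 1.07.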

How the results depend on the processing

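The numbers of called genes depended on the processing. Along the order, 3 genes were higher and 0 lower. The order by TMM-scaled CPM was the same as the main order, so its 3 called genes are the main fit repeated. The number of higher genes was also 3 with RLE scaling, filterByExpr and a minimum mean of 5 CPM. It was 34 with log2 Erbb2 CPM, 42 with no filter, 34 with the immune level and 18 with the skeletal muscle level as a covariate. It was 1 with library totals, the fibroblast level or limma voom, and 0 without tumours 6 and 8, a fit on 6 tumours. By Spearman rho it was 0, where a single gene in perfect order could not pass with 8 tumours. DESeq2 called 135 higher and 14 lower, and the immune covariate gave 8 lower. Without 1 tumour the number of higher genes ranged from 0 (without tumour 6) to 15 (without tumour 1), and was 9 without tumour 2, 2 without tumour 4 and 1 without tumour 3, 5, 7 or 8; the number of lower genes was 0 in each. An alternative chosen after seeing the data combined log2 Erbb2 CPM with leaving out each tumour, and gave 0 to 98 higher and 0 to 8 lower genes. The cause of these shifts was not tested. At an unadjusted p under 0.05, the fits without 1 tumour gave more higher than lower genes, as did all other settings except Spearman rho (411 higher, 599 lower). Across 29 alternatives, the repeated order by TMM-scaled CPM among them, Tnnt2 was called in 23, Fam167a in 15 and Cpe in 14, all positive. Of 72 genes followed through the settings, 65 kept their sign. Erbb3 turned to 0.14 with the fibroblast covariate. Without tumours 6 and 8, Egfr turned to 0.0248, Erbb3 to 0.13, Tgfa to 0.0807, Nrg1 to -0.54, Rgs8 to -0.30, Mmp13 to -0.28 and Fosl1 to -0.29. The ranges of the 12 cell type levels moved by less than their SD with a pseudocount of 1. No paired analysis was possible because the tumours form 1 group ordered by a measured level, with no replicate number that links them.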
